A study of Mus musculus with 12 samples.

Results

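Dual-specificity MAP kinase phosphatases are the genes described here. They were chosen by symbol, as the rows of the count table named Dusp1, Dusp2, Dusp4, Dusp5, Dusp6, Dusp7, Dusp8, Dusp10, Dusp14 and Dusp16. All 10 symbols were found among the 24062 rows, and 9 of the 10 passed the filter on low counts, with Dusp2 below it. RNA was sequenced from mouse embryonic fibroblasts (MEFs) of 2 lines, in 12 libraries. The shRenilla line expresses a control short hairpin RNA (shRNA) against Renilla luciferase, and the shBruce line expresses shRNA #1 against Birc6, the gene of the giant ubiquitin-conjugating protein BRUCE. Each line was sampled in fully supplemented medium (FM) and after 2 h without serum and amino acids (Starv), with 3 replicates in each of the 4 conditions. Both lines carry a retrovirally delivered shRNA and drug resistance, and each shRNA is represented by 1 line, so that the knockdown and any other difference between the lines cannot be told apart. The labels do not say whether the 3 replicates were separate cultures, so p-values measure the spread between these samples, which may be technical. Starv removed serum and amino acids together, and any other difference between the media came with them. The parts of these changes cannot be told apart.

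MAP kinases, the ERK, JNK and p38 enzymes, are switched on when a threonine and a tyrosine in their activation loop are phosphorylated. Dual-specificity phosphatases remove both phosphates and so switch the kinases off. Many of their genes are themselves induced by the pathway they restrain, and in fibroblasts serum is a classical inducer of several of them, which gives a negative feedback loop. Dusp1, Dusp2, Dusp4 and Dusp5 encode inducible nuclear enzymes, of which DUSP5 acts on ERK and DUSP1 on p38, JNK and ERK. Dusp6 and Dusp7 encode cytoplasmic enzymes that act on ERK. Dusp8, Dusp10 and Dusp16 encode phosphatases of JNK and p38. Dusp14 encodes a small atypical member without the kinase-binding domain of the others.

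Promoter windows of the 4 genes that fell in both lines after starvation are shown so that their sequence can be read beside the values. Each window is the 250 bases before the RefSeq transcription start on GRCm38.p6, written 5′ to 3′ on the strand of the gene. RefSeq windows were matched for 9 of the 10 genes, all but Dusp4. Capitals mark matches, on either strand, to the cyclic AMP response element (CRE, TGACGTCA), to its half-site TGACG outside a full CRE, or to the CArG box, the site that serum response factor binds. The windows lie at chr17:26508473-26508722 on the minus strand for Dusp1, chr19:53528895-53529144 on the plus strand for Dusp5, chr10:99262981-99263230 on the plus strand for Dusp6 and chr9:106368382-106368631 on the plus strand for Dusp7.
Dusp1: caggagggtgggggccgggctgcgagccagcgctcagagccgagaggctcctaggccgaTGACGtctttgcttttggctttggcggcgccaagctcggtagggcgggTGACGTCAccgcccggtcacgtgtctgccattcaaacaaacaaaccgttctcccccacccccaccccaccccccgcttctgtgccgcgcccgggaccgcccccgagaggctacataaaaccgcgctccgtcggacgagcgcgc
Dusp5: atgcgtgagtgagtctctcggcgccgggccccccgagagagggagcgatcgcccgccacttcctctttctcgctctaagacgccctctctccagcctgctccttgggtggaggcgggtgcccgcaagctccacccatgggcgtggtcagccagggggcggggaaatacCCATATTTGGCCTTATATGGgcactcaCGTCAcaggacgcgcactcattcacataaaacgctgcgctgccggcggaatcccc
Dusp6: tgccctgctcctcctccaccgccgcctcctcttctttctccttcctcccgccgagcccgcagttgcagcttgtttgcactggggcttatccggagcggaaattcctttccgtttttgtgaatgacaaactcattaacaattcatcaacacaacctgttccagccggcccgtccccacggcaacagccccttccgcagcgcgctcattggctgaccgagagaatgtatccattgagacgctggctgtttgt
Dusp7: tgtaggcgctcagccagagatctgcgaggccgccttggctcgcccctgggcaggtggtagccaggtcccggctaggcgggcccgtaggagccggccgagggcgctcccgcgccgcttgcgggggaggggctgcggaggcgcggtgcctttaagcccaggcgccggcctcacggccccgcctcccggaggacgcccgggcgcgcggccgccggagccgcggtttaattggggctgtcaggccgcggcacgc
The Dusp1 window held a full CRE from base -143 to base -136, counted back from the start, and a half-site from -191 to -187. The Dusp5 window held 2 CArG boxes end to end, from -82 to -73 and from -72 to -63, and a half-site from -55 to -51. Of the 32851 RefSeq windows of this length, 1.47% held a CArG box, 1.55% a CRE and 16.6% a half-site outside a CRE. GENCODE M21 places the Dusp5 start inside this window, a little before the RefSeq start. The Dusp6 and Dusp7 windows held none of these letters. A CRE was also found in the Dusp8 window, at -107 to -100 and at -63 to -56, and a half-site in the Dusp16 window, at -70 to -66, although the bases after the RefSeq starts of Dusp8 and Dusp16 were not found in a GENCODE M21 transcript of the gene. No window of the 9 genes held AP-1 letters (TGANTCA, in 6.75% of all windows) or the FOXO letters GTAAACA (3.17%). GC boxes (GGGCGG) were found in 7 of the 9, all but Dusp6 and Dusp7, against 32.7% of all windows. A match describes the letters of the window and is not a measured binding site.

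The deposited counts summed to between 7717265 and 18510540 per library, with the lowest total in shBruce Starv replicate 1. That library also had the most genes with a count, 16350 against 14182 to 15107 in the other libraries. Counts were scaled to the libraries' effective sizes, and a value below is such a normalized count unless it is named as a difference or as a level per kilobase (kb). Replicates of shBruce Starv differed from each other by 0.58 to 0.779 (root mean square of log2 differences over genes). Those of shBruce FM differed by 0.314 to 0.556, with replicate 3 farthest from the others, and those of shRenilla conditions by 0.228 to 0.334. Fibroblast marker genes summed to between 130000 and 199000 in every library, against at most 321 for immune, 64 for endothelial, 16.1 for epithelial and 420 for neural markers. Col1a1, Col1a2, Vim and Fn1 made up most of the fibroblast sum, while Thy1 and Lum were at or near 0. In shRenilla MEFs the fibroblast sum was 155000 to 159000 in FM and 130000 to 140000 in Starv, and the neural sum was 167 to 219 in FM and 291 to 334 in Starv, almost all of it from Tubb3. In shBruce MEFs the fibroblast sum was 167000 to 199000 in FM and 132000 to 162000 in Starv, and the neural sum was 260 to 302 in FM and 387 to 420 in Starv. The part of these shifts in the results below was not tested. Birc6 (chr17:74528295-74703356) checks the lines. Birc6 had 4682, 3273 and 5061 normalized counts in shRenilla FM and 1207, 1265 and 1390 in shBruce FM. In Starv, Birc6 had 4759, 4712 and 2787 in shRenilla and 1175, 703 and 1226 in shBruce MEFs. Every shBruce library was below every shRenilla library, as the labels say. The Birc6 log2 difference was -1.75 ± 0.25 (SE) in FM (edgeR quasi-likelihood test, adjusted p = 0.0627) and -1.98 ± 0.25 in Starv (adjusted p = 0.0186). The Starv call of Birc6 was lost without shRenilla Starv replicate 1 or replicate 2, where the adjusted p was 0.110 and 0.115.

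The first question was how the phosphatase genes responded to 2 h of starvation in control MEFs. In shRenilla MEFs, 4 of the 9 tested genes fell, namely Dusp5, Dusp1, Dusp7 and Dusp6, and none rose at an adjusted p under 0.05. Of the 12154 genes with a test, 883 fell in this comparison (7.27%) and 1178 rose (9.69%). With upper-quartile normalization 641 fell and 1588 rose, and after removal of each library's length and GC trends 1687 fell and 1403 rose. The 4 phosphatase genes fell under both, and with the trends removed Dusp16 fell as well (edgeR, log2 fold change -0.41, adjusted p = 0.0196). The median log2 fold change of the 9 genes was -0.29, against -0.01 over all genes. Of the 9 genes, 6 were lower in every Starv library than in every FM library (Dusp1, Dusp5, Dusp6, Dusp7, Dusp14 and Dusp16), which was the case for 26.5% of all genes. In bulk RNA, fewer cells that express a gene and less RNA of it per cell cannot be told apart.

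**Figure D1:**
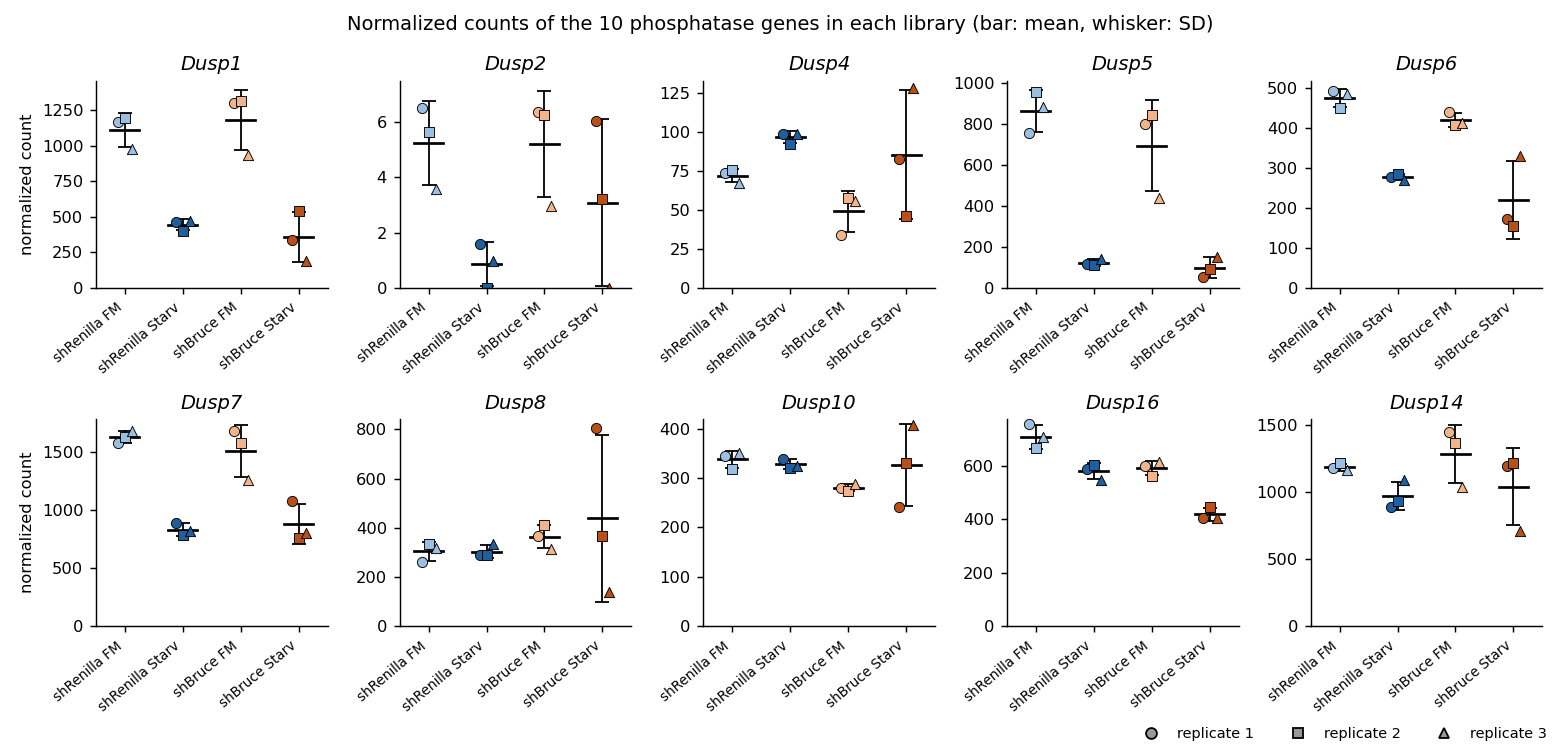
Normalized counts (y axis, each panel from 0) of the 10 phosphatase genes in the 4 conditions (x axis), with a point for each library shaped by its replicate number, the mean as a bar and the SD as a whisker. Dusp1, Dusp5, Dusp6, Dusp7 and Dusp16 are lower in all Starv libraries than in all FM libraries of the same line, and Dusp8 spreads from 140.3 to 805 in shBruce Starv.

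Dusp5 (chr19:53529109-53542431), the nuclear ERK phosphatase, changed most among these genes. Its normalized counts were 753, 952 and 879 in shRenilla FM and 114, 112 and 141 in shRenilla Starv. The 3 starved libraries were close to each other and far below the 3 fed ones. The log2 fold change was -2.82 ± 0.31 (SE), a 7.05-fold fall with a 95% confidence interval from -3.49 to -2.15 on the log2 scale (edgeR quasi-likelihood test, adjusted p = 6.22e-05). In shBruce MEFs, Dusp5 had 799.6, 842 and 437 normalized counts in FM and 50.5, 90.7 and 150.5 in Starv. Replicate 3 was the lowest of the FM libraries and the highest of the Starv libraries, and the conditions still did not overlap. The log2 fold change was -2.77 ± 0.32, a 6.84-fold fall (interval -3.46 to -2.09, adjusted p = 7.60e-05). The log2 fold change in shBruce minus that in shRenilla MEFs was 0.04, with an interval from -0.88 to 0.97 (interaction of line and medium, adjusted p = 0.981), so that a difference of either sign up to almost 1 log2 unit was within the error.

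Dusp1 encodes a nuclear phosphatase of p38, JNK and ERK and is an immediate-early gene in fibroblasts. It had 1166, 1194 and 975 normalized counts in shRenilla FM and 460.5, 401 and 469 in shRenilla Starv. The conditions were well apart. Its log2 fold change was -1.33 ± 0.28 (SE), a 2.51-fold fall (interval -1.92 to -0.73, adjusted p = 0.00536). In shBruce MEFs it had 1297, 1310 and 936 in FM and 335, 539.9 and 189 in Starv. Here the starved libraries were spread from 189 to 539.9, all below the lowest fed library. The log2 fold change was -1.74 ± 0.28, a 3.33-fold fall (interval -2.35 to -1.13, adjusted p = 0.000908). The change differed between the lines by -0.41 (interval -1.25 to 0.43, adjusted p = 0.813). In GENCODE M21, the Dusp1 gene spans chr17:26505590-26562128 on the minus strand and overlaps Ergic1 on the plus strand. Because the strand setting of the counting was not given in the sources used here, reads from the 2 genes in the overlap cannot be told apart. Ergic1 had log2 fold changes of -0.25 (adjusted p = 0.143) and -0.23 (adjusted p = 0.148) in the 2 lines, smaller in size than those of Dusp1.

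The other 2 inducible nuclear phosphatase genes were low in these cells. Dusp4 (chr8:34807297-34819894) had 73.5, 75.4 and 67.2 normalized counts in shRenilla FM and 98.9, 92.6 and 99 in shRenilla Starv. All 3 starved libraries lay above all 3 fed libraries, unlike those of the 4 genes that fell. The log2 fold change of 0.43 ± 0.29 (SE) did not pass the test (interval -0.20 to 1.05, adjusted p = 0.345). In shBruce MEFs, Dusp4 had 34, 57.6 and 55.5 in FM and 82.8, 45.9 and 128 in Starv. The conditions overlapped through the starved replicate 2, and the log2 fold change was 0.81 ± 0.31 (interval 0.14 to 1.48, adjusted p = 0.0778). Without that library, the log2 fold change was 1.13 and passed the test (adjusted p = 0.00724). Dusp2 (chr2:127336159-127338376), best known from activated lymphocytes, was near the limit of detection, with 8, 6 and 4 counts in shRenilla FM, 2, 0 and 1 in shRenilla Starv, 6, 6 and 3 in shBruce FM and 3, 3 and 0 in shBruce Starv. It was not tested across genes. Its shRenilla conditions did not overlap on the normalized scale, for which the exact permutation test gave p = 0.1, the smallest that 3 libraries against 3 allow (two-sided), and its shBruce conditions overlapped (p = 0.4).

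Dusp6 and Dusp7, the genes of the cytoplasmic ERK phosphatases, both fell in both lines. Dusp7 (chr9:106368632-106375724) had 1579, 1631 and 1678 normalized counts in shRenilla FM and 891, 784 and 822.5 in shRenilla Starv. Its replicates were among the tightest here, and its log2 fold change of -0.97 ± 0.15 (SE) was a 1.96-fold fall (interval -1.29 to -0.65, adjusted p = 0.000689). In shBruce MEFs it had 1685, 1581 and 1259 in FM and 1076, 759.7 and 803 in Starv. The highest starved library was below the lowest fed one, and the log2 fold change was -0.78 ± 0.15 (interval -1.10 to -0.46, adjusted p = 0.00239). Dusp6 (chr10:99263231-99267489), an ERK target gene in many tissues, had 494, 451 and 486 in shRenilla FM and 277, 285 and 270.4 in shRenilla Starv. The log2 fold change was -0.78 ± 0.22 (interval -1.25 to -0.31, adjusted p = 0.0258). This call was lost in each of the 6 fits that left out 1 shRenilla library, in which the log2 fold change stayed between -0.83 and -0.76 and the adjusted p lay between 0.0534 and 0.0874. In shBruce MEFs, Dusp6 had 439.6, 407 and 413 in FM and 172, 155 and 332 in Starv. The starved replicate 3 lay well above the other starved libraries, and the log2 fold change was -0.92 ± 0.22 (interval -1.40 to -0.44, adjusted p = 0.00995), a call that was lost when the fit held those 6 libraries alone (adjusted p = 0.0795). The changes of the lines differed by 0.19 for Dusp7 (interval -0.26 to 0.64) and by -0.14 for Dusp6 (interval -0.81 to 0.53), neither past the test.

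Of Dusp8, Dusp10 and Dusp16, the genes of JNK and p38 phosphatases, only Dusp16 passed the test, in shBruce MEFs. Dusp16 (chr6:134715468-134792625) had 757, 666 and 708 normalized counts in shRenilla FM and 589, 605 and 548 in shRenilla Starv. The conditions did not overlap, but the log2 fold change of -0.29 ± 0.11 (SE) missed the threshold (interval -0.53 to -0.05, adjusted p = 0.0856). This fall passed in 0 of the 12 fits that left out 1 library. It passed under 4 of the 10 other alternatives, among them DESeq2's Wald test (adjusted p = 0.02605). In shBruce MEFs, Dusp16 had 599, 563 and 615 in FM and 406, 448 and 404 in Starv. Here it fell by 0.50 ± 0.11 on the log2 scale, 1.41-fold (adjusted p = 0.00638), a call that was lost when the fit held those 6 libraries alone (adjusted p = 0.102). The 2 changes differed by -0.21 (interval -0.54 to 0.13, adjusted p = 0.806), so they were not shown to differ. Dusp10 (chr1:184013302-184075636) had 345, 318 and 350.4 in shRenilla FM and 339, 319 and 325 in shRenilla Starv. Its log2 fold change was -0.04 ± 0.16 (interval -0.39 to 0.30, adjusted p = 0.878), an interval that includes 0 and also the Dusp16 value of -0.29. In shBruce MEFs, Dusp10 had 280.3, 273 and 288 in FM and 240.2, 331 and 408 in Starv, and the log2 fold change was 0.23 ± 0.16 (adjusted p = 0.323). Without the starved replicate 1, it was 0.38 and passed the test (adjusted p = 0.0395). Dusp10 overlaps 1700056E22Rik on the other strand, whose reads cannot be told apart from those of Dusp10 where the genes overlap. That gene had at most 32.3 normalized counts in a library and rose by 1.54 and 1.34 on the log2 scale in shRenilla and shBruce MEFs (edgeR, adjusted p = 0.0140 and 0.0178). Other annotated genes without a row in the count table overlap Dusp1, Dusp5, Dusp8 and Dusp16. Reads from these may have been counted for the phosphatase genes.

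Dusp8 (chr7:142079490-142095843) had 262, 332 and 316 normalized counts in shRenilla FM and 287, 287 and 332 in shRenilla Starv, with a log2 fold change of -0.01 (SE 0.41, interval -0.88 to 0.87). This error rests on a spread estimated over all 12 libraries, so it also takes in the wide shBruce Starv values given next. In shBruce MEFs, Dusp8 had 367, 410.4 and 314 in FM and 805, 367 and 140.3 in Starv. The starved replicates of shBruce MEFs were thus on both sides of the fed ones, and the log2 fold change of 0.23 ± 0.41 (SE, adjusted p = 0.714) became -0.54 without starved replicate 1. The interval from -0.65 to 1.12 shows how little these libraries fix the value. Dusp14 (chr11:84048041-84069261), the small atypical member, had 1173, 1212 and 1159 in shRenilla FM and 886, 930.3 and 1085 in shRenilla Starv. These conditions did not overlap, and the log2 fold change of -0.29 ± 0.19 (SE) did not pass the test (interval -0.70 to 0.12, adjusted p = 0.325). In shBruce MEFs, Dusp14 had 1444, 1364 and 1032 in FM and 1193, 1210 and 708 in Starv, which overlapped, with a log2 fold change of -0.31 ± 0.19 (adjusted p = 0.263).

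In shBruce MEFs, 5 of the 9 tested genes fell after starvation and none rose, against 10.6% of all genes that fell and 12.4% that rose (1284 and 1506 genes). With upper-quartile normalization these were 932 and 1985 genes, and with length and GC trends removed 2351 and 1690. The 5 phosphatase genes fell under both, and with the trends removed Dusp14 fell as well (edgeR, log2 fold change -0.48, adjusted p = 0.0202). The same 5 genes, Dusp1, Dusp5, Dusp6, Dusp7 and Dusp16, were the ones whose conditions did not overlap with Starv lower, as did 14.8% of all genes. The median log2 fold change of the 9 genes was -0.50, against 0.02 over all genes. All 4 genes called in shRenilla MEFs were among the 5 called in shBruce MEFs. The libraries of the 2 comparisons are separate, but both tests come from the same fit with a shared spread, so the calls are not independent. In shRenilla MEFs the interval of Dusp5 (-3.49 to -2.15) lay below those of the other 3 falling genes, whereas in shBruce MEFs it overlapped that of Dusp1 (-2.35 to -1.13). Differences between genes were not tested. No interaction of line and medium passed the test for any of the 9 genes or for any of the 12154 genes (0%), and the smallest adjusted p among the 9 was 0.806. For the interaction, 474 of the 12154 genes had an unadjusted p under 0.05, none of the 9 among them. This share is below 0.05, the share that such a test gives when no gene differs. DESeq2's Wald test and limma-voom also called 0 interactions.

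**Figure D2:**
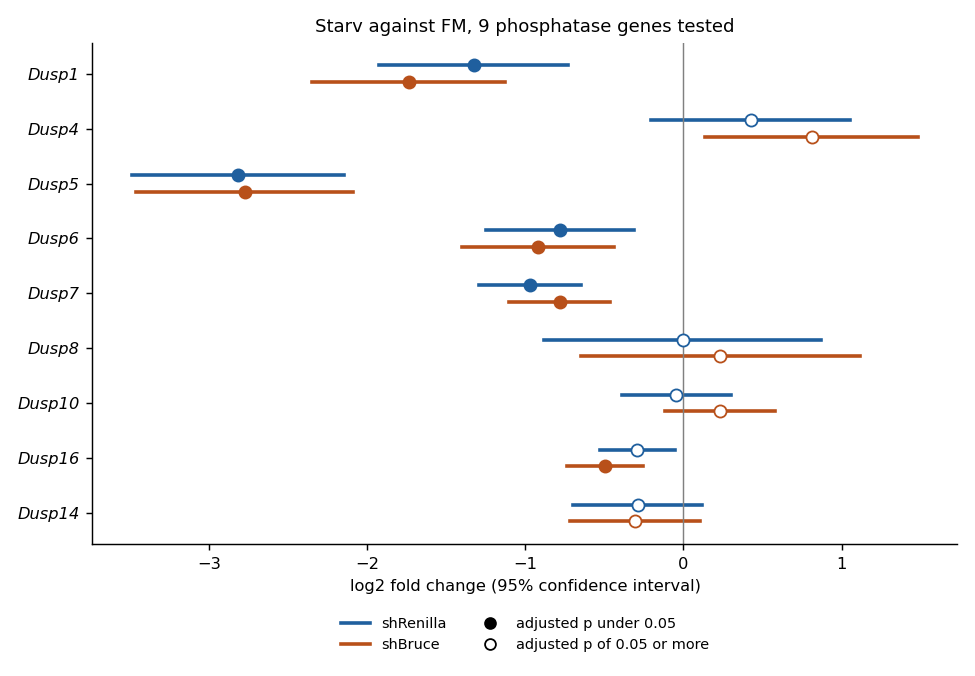
Log2 fold change of Starv against FM (x axis) for the 9 tested genes (y axis, by role), in shRenilla MEFs (blue) and shBruce MEFs (orange), with 95% confidence intervals as lines and filled points for an adjusted p under 0.05. Dusp5 lies farthest to the left in both lines, at -2.82 and -2.77, the intervals of the lines overlap for each gene, and Dusp4 is the gene with the highest value in both, at 0.43 and 0.81, not past the test.

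The next question was whether the phosphatase genes differed between shBruce and shRenilla MEFs. In FM, none of the 9 genes passed the test, and neither did any of the 12154 genes (0%). At an unadjusted p under 0.05 there were 1750 genes, with Dusp16 the only one of the 9 (edgeR, log2 difference -0.26, adjusted p = 0.321). DESeq2's Wald test called 76 genes in this comparison and limma-voom 0, none of the 9 genes in either. The log2 differences of the 9 genes ran from -0.55 for Dusp4 to 0.26 for Dusp8, with a median of -0.18 against 0.01 over all genes. Of the 9 genes, 4 did not overlap between the lines in FM (Dusp4, Dusp6, Dusp10 and Dusp16, each lower in shBruce MEFs). Over all 12154 genes, 33.4% did not overlap, counting both directions, and 2069 genes did not overlap with shBruce lower. The interval for Dusp4, -1.22 to 0.11, leaves room for a fall of more than 1 log2 unit, whereas that for Dusp7, -0.43 to 0.20, is narrower.

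In Starv, only Dusp16 of the 9 genes passed the test, against 23.9% of all genes. It was lower in shBruce than in shRenilla MEFs by 0.47 ± 0.11 (SE) on the log2 scale, 1.38-fold (interval -0.71 to -0.23, adjusted p = 0.0229). Every shBruce Starv library (404 to 448) was below every shRenilla Starv library (548 to 605), which was the case for no other of the 9 genes. Over all 12154 genes, 34.9% did not overlap in this comparison, counting both directions, and 2244 genes did not overlap with shBruce lower. This call was lost without shRenilla Starv replicate 1 (adjusted p = 0.110), without shRenilla Starv replicate 2 (adjusted p = 0.115) and without shBruce Starv replicate 2 (adjusted p = 0.053). Without shBruce Starv replicate 3, Dusp6 was also lower (log2 difference -0.78) and Dusp8 higher (0.93) in shBruce MEFs, whereas without shBruce Starv replicate 1 the Dusp8 difference was -0.28. Over all genes, fits that left out 1 library called 0 to 5735 in this comparison, against 2907 in the main fit. Without shBruce Starv replicate 3, 32 of the 63 tested genes of the MAP kinase lists given below were called. The libraries of the lines also differed in how counts depend on transcript length, with slopes per doubling of length from 0.0336 to 0.214 in shRenilla Starv and from -0.236 to 0.038 in shBruce Starv. Dusp16 has the longest transcript of the 10 genes (5104 bases). With each library's trends against length and GC content removed, the Dusp16 difference was -0.13 (adjusted p = 0.485). The other 8 genes had log2 differences from -0.32 for Dusp1 and Dusp6 to 0.50 for Dusp8, and the median of the 9 was -0.17 against -0.00 over all genes.

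**Figure D3:**
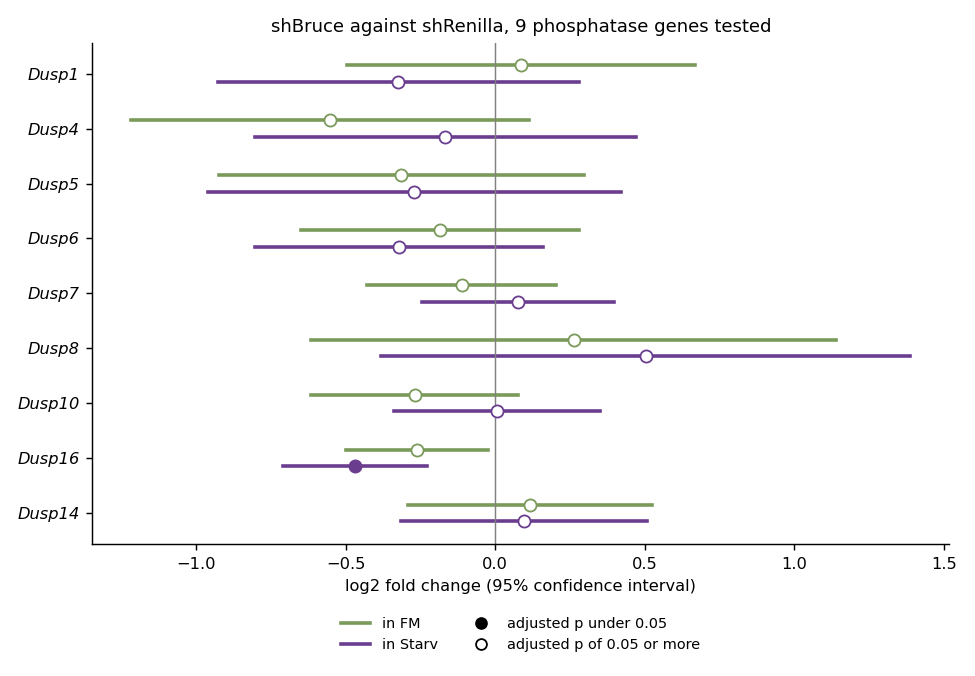
Log2 difference of shBruce against shRenilla MEFs (x axis) for the 9 tested genes (y axis, by role), in FM (green) and in Starv (purple), with 95% confidence intervals as lines and filled points for an adjusted p under 0.05. Dusp16 in Starv, at -0.47, is the 1 filled point, and the other intervals include 0, except that of Dusp16 in FM.

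Levels of different genes were compared as normalized counts per kb of the longest transcript in GENCODE M21. In shRenilla FM, Dusp14 was highest at 752 ± 17.5 (SD, n = 3) per kb, followed by Dusp1 at 559 ± 59.9, Dusp7 at 507 ± 15.4 and Dusp5 at 348 ± 40.5. The libraries of Dusp1 and Dusp7 overlapped in level, and every other pair of neighbours in the order was apart. Below them came Dusp6 at 171, Dusp16 at 139, Dusp10 at 121, Dusp8 at 63.2, Dusp4 at 26.3 and Dusp2 at 3.25 per kb. In shRenilla Starv, Dusp14 stayed first at 616 ± 66.6 per kb, and Dusp7 at 259 and Dusp1 at 223 changed places. Dusp5 went from place 4 to place 8, at 49.4 ± 6.56 per kb, below Dusp8 at 62.9 and above Dusp4 at 35.3. Dusp10 at 117 and Dusp16 at 114 overlapped there. The order in shBruce FM was that of shRenilla FM, with overlaps of Dusp14 with Dusp1 and of Dusp1 with Dusp7. In shBruce Starv the ranges of all neighbours from Dusp7 (place 2) to Dusp4 (place 9) overlapped, so that this part of the order is not resolved.

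**Figure D4:**
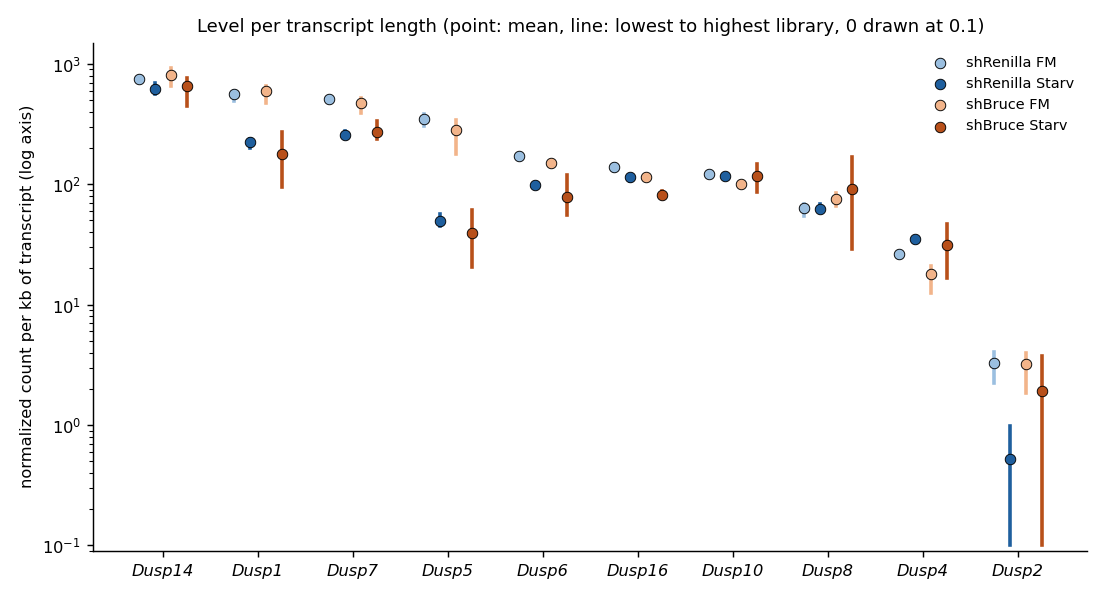
Level of the 10 genes (x axis, in the order of shRenilla FM) as normalized count per kb of transcript (y axis, log scale), with the mean of each condition as a point and the lowest to highest library as a line, a library at 0 being drawn at 0.1. Dusp14 stays between 451 and 919 in all libraries of all 4 conditions, Dusp5 drops from 348 to 49.4 in shRenilla MEFs, and Dusp2 is lowest throughout.

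Patterns over the 12 libraries were compared by the root mean square difference of log2 normalized counts, each gene centred on its own mean, which describes these libraries and is given without a test. Only genes that averaged 50 or more normalized counts were considered. Plk2, a serum-inducible kinase gene, was then nearest to Dusp1 (0.186), then Plau (0.255) and Ccrn4l (0.265). Plk2 had log2 fold changes of -1.20 in shRenilla and -1.66 in shBruce MEFs, beside -1.33 and -1.74 for Dusp1. The nearest to Dusp5 were Tnfaip3 (0.301), which encodes the NF-kappaB inhibitor A20, Has2 (0.312), a hyaluronan synthase gene, and Sema7a (0.334). Has2 had log2 fold changes of -3.01 and -3.18 and Sema7a of -3.13 and -3.17 in the 2 lines, somewhat larger in size than those of Dusp5, with no test of the difference. Dusp7 was nearest to Iffo2 (0.103), Ppp1r18 (0.104) and Furin (0.138), and Dusp6 to Cyth3 (0.139), Layn (0.145) and Nt5dc3 (0.153). Dusp16 was nearest to the thrombin receptor gene F2r (0.0764), then Plekhb2 (0.08) and Agfg1 (0.0801). Dusp10 was nearest to B4galt1 (0.0868), Dusp14 to Cdc20 (0.0982), Dusp4 to Dennd4b (0.212) and Dusp8 to Erich1 (0.226). Among the 9 genes themselves the smallest differences were between Dusp10 and Dusp16 (0.322), Dusp14 and Dusp16 (0.325) and Dusp6 and Dusp7 (0.352), and the widest was between Dusp4 and Dusp5 (1.78).

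Kinases of the MAP kinase cascades and other phosphatases were read from 6 lists of 77 genes, of which 63 passed the filter. Of the 77 genes, 19 are other dual-specificity phosphatase genes and 3 are tyrosine phosphatase genes. After starvation, 7 of the 63 fell and 4 rose in shRenilla MEFs, and 11 fell and 4 rose in shBruce MEFs. All 7 that fell in shRenilla MEFs were among the 11 in shBruce MEFs. Over all genes, 7.27% fell and 9.69% rose in shRenilla MEFs, and 10.6% fell and 12.4% rose in shBruce MEFs. Upper-quartile normalization turned the split of the 63 genes to 4 lower and 7 higher in shRenilla MEFs and gave 9 lower and 5 higher in shBruce MEFs. Without any 1 of the shRenilla FM libraries, or without shRenilla Starv replicate 1 or replicate 2, 3 to 5 of the 63 genes were called in shRenilla MEFs. Without shBruce Starv replicate 3, the calls were 17 in shRenilla and 25 in shBruce MEFs. Among 10 MAP kinase genes, 2 fell in each line. Mapk6, the gene of the atypical kinase ERK3, fell by 0.94 and 1.08 on the log2 scale in shRenilla and shBruce MEFs (adjusted p = 0.000755 and 0.000262). Mapk7, the gene of ERK5, fell by 0.46 and 0.66 (adjusted p = 0.0211 and 0.00213).

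Among 7 MAP kinase kinase genes, the p38 activator gene Map2k3 fell by 1.20 and 1.02 on the log2 scale (adjusted p = 0.000332 and 0.000868), and Map2k4, which encodes an activator of JNK, fell by 0.46 and 0.53 (adjusted p = 0.0187 and 0.00682). Map2k6, the gene of the other main p38 activator, rose by 0.90 in shRenilla MEFs (adjusted p = 0.0326), and its value in shBruce MEFs was 0.58 (adjusted p = 0.157). Of 22 MAP3 kinase and RAF genes, 1 fell and 2 rose in shRenilla MEFs, and 4 fell and 2 rose in shBruce MEFs. Map3k14, the gene of the NF-kappaB-inducing kinase, fell in both (-0.44 and -0.56, adjusted p = 0.0458 and 0.0122). Map3k13 rose in shRenilla MEFs (1.41, adjusted p = 0.0303), and Map3k15 (1.77, adjusted p = 0.0109) and Taok3 (0.93, adjusted p = 0.0149) rose in shBruce MEFs. Among 11 genes of kinases activated by MAP kinases, Rps6ka4 fell by 0.66 and 0.69 and Mapkapk2 by 0.40 and 0.65 in the 2 lines (adjusted p between 0.00127 and 0.0254), and Mknk1 rose by 0.62 in shRenilla MEFs (adjusted p = 0.00915). The calls of Mapk6, Map2k3 and Rps6ka4 held in both lines when each library was left out in turn. In shRenilla MEFs, the calls of Map2k6 and Map3k14 were lost without any 1 of the 6 shRenilla libraries, those of Mapk7, Map3k13 and Mapkapk2 without any but Starv replicate 3, that of Map2k4 without FM replicates 1 or 3 or Starv replicates 1 or 3, and that of Mknk1 without FM replicate 1. The call of Map3k14 in shRenilla MEFs was also lost without shBruce FM replicates 1 or 3, and those of Map3k14 and Taok3 in shBruce MEFs without shBruce FM replicate 2.

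Of the other dual-specificity phosphatase genes, 13 of 19 passed the filter. None of the 13 passed the test in shRenilla MEFs after starvation, and their log2 fold changes ran from -0.48 to 0.48. In shBruce MEFs, Dusp28 (0.89, adjusted p = 0.00725) and the cofilin phosphatase gene Ssh2 (0.44, adjusted p = 0.0220) rose, and none of the 13 fell. The call of Ssh2 was lost without shBruce FM replicates 1 or 2. None of the 3 tyrosine phosphatase genes that act on MAP kinases (Ptpn5, Ptpn7 and Ptprr) passed the filter. The difference between the 9 genes and these lists was not tested. Between the lines in FM, none of the 63 genes passed the test. In Starv, 12 were lower and 3 higher in shBruce than in shRenilla MEFs, beside the 23.9% of all genes called in either direction. This split was 0 lower and 2 higher after removal of each library's length and GC trends, 2 lower and 0 higher without shBruce Starv replicate 1, and 22 lower and 10 higher without shBruce Starv replicate 3. None of the 63 genes was called when shBruce Starv replicate 2 was left out. The genes called included Rps6ka5 (-1.03, adjusted p = 0.0225), Map3k2 (-0.85, adjusted p = 0.0233), Dusp11 (-0.53, adjusted p = 0.0234) and Dusp23 (1.52, adjusted p = 0.0285). With only those 6 libraries in the fit, or without shRenilla Starv replicate 1 or replicate 2, 0 of all genes passed the test in this comparison, and the 4 genes named here also lost their calls without shBruce Starv replicate 2 or with length and GC trends removed.

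**Figure D5:**
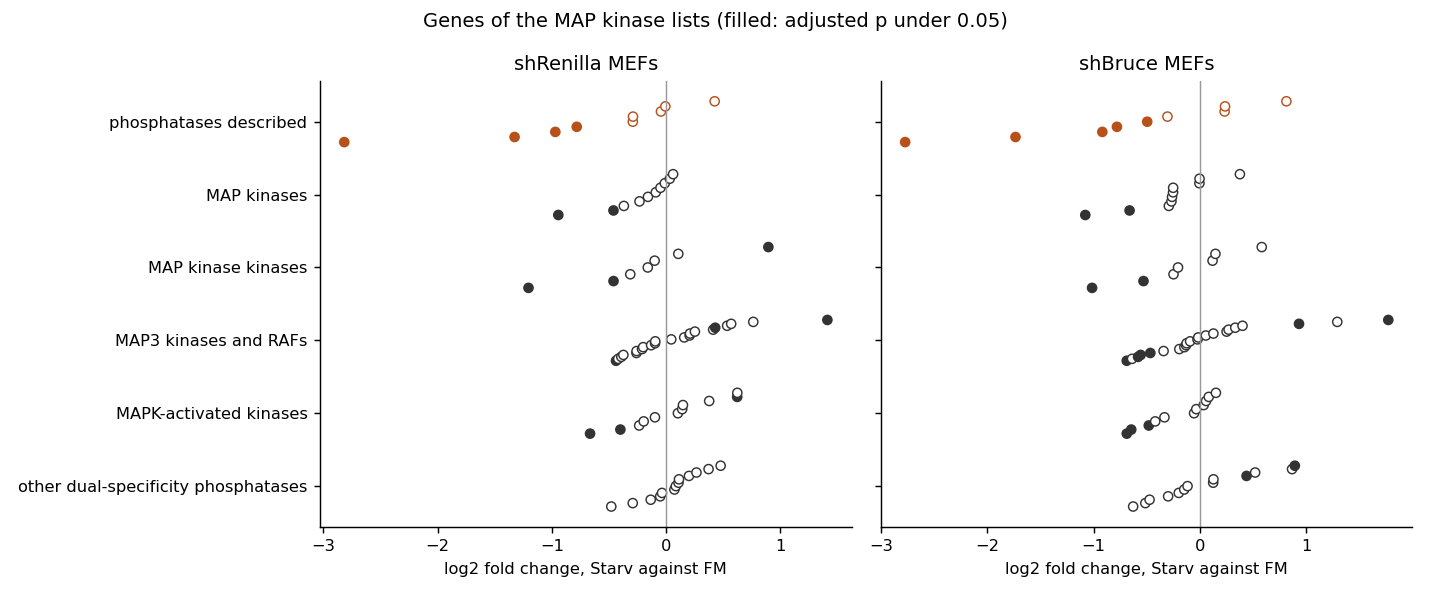
Log2 fold change of Starv against FM (x axis) in shRenilla MEFs (left) and shBruce MEFs (right) for each tested gene, with the 9 phosphatase genes in orange on top and 5 lists of the MAP kinase pathway in dark grey below, and filled points for an adjusted p under 0.05. The lowest value in each panel is that of Dusp5 (-2.82 and -2.77), and the lowest among the lists is Map2k3 at -1.20 on the left and Mapk6 at -1.08 on the right.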

How the data were processed

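RNA-Seq counts of the 12 libraries were analysed. The authors prepared poly(A)-enriched libraries, removed reads aligning to rRNA, mapped single-end reads to mm10 with STAR (2.4.0d) and counted them per gene with HTSeq (0.5.4p3). The deposited values are raw counts per gene symbol, with 24062 rows, and 0 columns were left unused. The annotation, strand setting and overlap mode of the counting are not given in the sources used here. In the table, 27 symbols had been turned into dates (0.296% of counts) and are not named. Total counts ran from 7717265 to 18510540 per library, and the chi-square per degree of freedom between replicates from 2.21 to 95.2, so errors are SDs or standard errors of the fit, not counting errors.

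Counts were fitted in edgeR 4.0.16 (R 4.3.3) after filterByExpr and TMM scaling, with a mean for each of the 4 conditions over all 12 libraries. Each gene had a single estimate of spread over all 12 libraries. The errors given for a line thus also draw on the libraries of the other line. The quasi-likelihood test was two-sided, with Benjamini-Hochberg adjustment over 12154 genes, a level of 0.05 and confidence intervals at 95%. Normalized counts were scaled so that each library had the effective size of the geometric mean over all 12. The comparisons were Starv against FM in each line, shBruce against shRenilla in each medium, and the interaction. The smallest p of the exact permutation test with 3 libraries against 3 is 0.1. Gene coordinates, lengths and base composition were read from GENCODE M21 (GRCm38, the build of mm10), where 22724 symbols matched directly and 934 through older symbols. Promoter sequences came from RefSeq (GRCm38.p6). The fit was tested on simulated counts before use. These had an equal spread in all conditions, unlike the libraries here, so that test does not cover unequal spread.

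The alternatives were upper-quartile scaling, DESeq2 1.42.0 (its size factors alone, or its Wald test), limma-voom (limma 3.58.1) as in the authors' methods, no filter, at least 10 counts in every library, a replicate block, a fit of only the groups compared, removal of each library's trends against length and GC content (spline with 4 degrees of freedom, over 99.2% of genes) with and without that block, and each library left out in turn. The rule for named genes takes the 10 phosphatase genes, Birc6, up to 3 higher and 3 lower genes of each pathway list per comparison with the largest change among those called, and the 3 genes nearest in pattern to each phosphatase gene. From these, the text gives a selection. Genes named for an overlap or as a marker stand outside it, and 1 gene that the rule takes is not reported here. The phosphatase genes, the lists and the tests were chosen with earlier results of these data known, so no list is independent evidence. Figures were made with matplotlib 3.10.9 in Python 3.11.15.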

Additional observations from a re-analysis of the deposited data

How the results depend on the processing

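Of 981 values of single phosphatase genes under an alternative (9 genes, 5 comparisons), 908 kept their direction and their side of the threshold, 14 lost a call, 12 gained one and 47 changed sign, none of the 47 from a called value. The starvation calls of Dusp1, Dusp5 and Dusp7 held in both lines under every alternative, with log2 fold changes of Dusp5 from -2.93 to -2.74 in shRenilla and from -3.23 to -2.53 in shBruce MEFs. Fitting only the groups compared gave 7 called genes in shRenilla MEFs (Dusp14, Dusp16 and, as higher, Dusp4 added), 3 in shBruce MEFs (Dusp6 and Dusp16 lost) and 0 between the lines in Starv. Over all genes, these fits called 5013, 956 and 0. The Starv call between the lines also went to 0 with length and GC trends removed, with or without the replicate block. Leaving out 1 library gave 0 to 3 called genes there, 3 to 4 in shRenilla and 5 to 6 in shBruce MEFs. Over all genes, the ranges were 0 to 5735, 1149 to 3212 and 1855 to 4009. In FM and for the interaction, 0 of the 9 genes were called under each alternative.

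Values that did not pass the test changed sign as follows, on the log2 scale. With length and GC trends removed, and then with the replicate block as well, the differences between the lines were -0.082 and -0.094 for Dusp1 in FM, -0.015 and -0.027 for Dusp14 in FM, -0.21 and -0.23 for Dusp14 in Starv, and -0.061 and -0.067 for Dusp7 in Starv, and the interaction of Dusp5 was -0.0015 and -0.041. With the replicate block alone, the Dusp5 interaction was -0.0078 and the Dusp10 difference in Starv -0.011, and the latter was -0.019 without a filter and -0.0006 with only the groups compared. In shRenilla MEFs, upper-quartile normalization gave 0.037 for Dusp10 and 0.075 for Dusp8 after starvation, and only the groups compared gave 0.015 for Dusp8. Limma-voom gave -0.18 for Dusp8 in shBruce MEFs and -0.18 for its interaction. The cause of these shifts was not tested. Leaving out 1 library, the difference between the lines in Starv ranged from -0.65 to 0.15 for Dusp4, -0.11 to 0.17 for Dusp7, -0.28 to 0.93 for Dusp8, -0.19 to 0.16 for Dusp10 and -0.036 to 0.31 for Dusp14, and in FM from -0.20 to 0.0025 for Dusp7. The change of Dusp8 ranged from -0.10 to 0.053 in shRenilla and from -0.54 to 0.66 in shBruce MEFs, and that of Birc6 in shRenilla MEFs from -0.26 to 0.13. The interaction ranged from -0.10 to 0.70 for Dusp4, -0.41 to 0.28 for Dusp5, -0.59 to 0.071 for Dusp6, -0.0053 to 0.28 for Dusp7, -0.55 to 0.67 for Dusp8 and -0.16 to 0.19 for Dusp14.

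The replicate block changed no count of called phosphatase genes. Same-numbered libraries deviated together with correlations of 0.0604 to 0.14 between the lines in FM, -0.438 to -0.0651 in Starv, -0.373 to 0.098 between media in shRenilla and 0.0126 to 0.115 in shBruce MEFs, so the numbers were not taken as pairs. In FM all 6 libraries correlated best with their own number, in the other comparisons 0, 0 and 2 of 6. Over all genes, counts of calls that moved by more than 1.5 times were as follows. Between the lines in FM, 0 became 76 with DESeq2's Wald test, 7 without a filter, 597 with only the groups compared, 2 with length and GC trends removed with or without the block, and up to 32 with 1 library left out. In Starv, 2907 became 1932 with the block, 679 with the trends removed, 1 with both, 0 with only the groups compared and 0 to 5735 with 1 library left out. With only the groups compared, 2061 became 5013 in shRenilla and 2790 became 956 in shBruce MEFs, and with 1 library left out the counts ran from 1149 to 3212 and from 1855 to 4009. Upper-quartile normalization turned the split in shRenilla MEFs from 1178 higher and 883 lower into 1588 and 641, and that in shBruce MEFs from 1506 and 1284 into 1985 and 932. Dusp2 had at most 8 counts in a library and did not pass the filter.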
